A study of Mus musculus with 12 samples.

Results

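TAM receptors are a family of receptor tyrosine kinases formed by Tyro3, Axl and Mertk, and their known protein ligands are Gas6 and protein S, encoded by Pros1. The values of these 5 genes were taken from a table of 36222 genes measured by RNA sequencing in mouse regulatory T cells (Treg). Axl was selected on its measured difference between the genotypes ex vivo, and the other 4 genes were taken because they complete the family. Each symbol belonged to a single gene model, so all 5 genes had a row.

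Treg were sorted from spleen CD4+ cells of single mice by YFP, which reports a Cre expressed from the Foxp3 locus. All animals carried this Foxp3-YFP-Cre. The wild-type group (WT) carried nothing further, and the Ikzf1 conditional knockout group (cKO) also carried floxed Ikzf1 alleles, so that Ikaros, the zinc finger transcription factor that Ikzf1 encodes, was lost in cells that express Foxp3. The mice were 6 to 8 weeks old. RNA was taken either from Treg as sorted (ex vivo) or from Treg stimulated for 4 h with antibodies to CD3 and CD28 fixed to the plate, each at 1 µg/ml (stimulated), which gave 4 groups of 3 libraries. In cKO Treg Ikzf1 fell by 1.52 (log2, SE 0.11) before and by 1.29 after stimulation, where the limma adjusted p was 5.45e-05 and 0.000161.

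Gas6 and protein S are secreted proteins that bind a TAM receptor with one end and, with a domain of vitamin K-dependent gamma-carboxylated glutamates at the other, the phosphatidylserine exposed on dying or activated cells. Gas6 binds all of the receptors, while protein S is known as a ligand of Tyro3 and Mertk and not of Axl in mice. In macrophages and dendritic cells TAM receptors serve the uptake of apoptotic cells and damp responses to Toll-like receptors and cytokines, and activated T cells are a known source of protein S.

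In these libraries Axl was the most abundant TAM receptor in every group, and it was the receptor that differed between the genotypes. Axl transcripts stood at 10.4 ± 0.61 TPM in WT and 67.0 ± 5.09 TPM in cKO ex vivo, and at 11.3 ± 2.25 TPM in WT and 29.2 ± 6.83 TPM in cKO after stimulation (SD, n = 3). TPM is transcript abundance corrected for gene length and scaled to a total of 1000000 per library, so levels can be compared between genes. Pros1, a ligand gene, was higher in every stimulated cKO library than in any stimulated WT library, but its call depended on the libraries and the minimum level used. The genotype differences of Tyro3, Mertk and Gas6 did not pass the test.

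Axl (ENSMUSG00000002602) lies on the minus strand of mm9 chromosome 7, from 26542292 to 26573724, with up to 20 exons per transcript. Pros1 (ENSMUSG00000022912) lies on the plus strand of chromosome 16, from 62854133 to 62929172, with up to 15 exons. Tyro3 (ENSMUSG00000027298) and Mertk (ENSMUSG00000014361) share chromosome 2 and its plus strand, from 119623469 to 119643840 and from 128524692 to 128628630. Gas6 (ENSMUSG00000031451) lies on the minus strand of chromosome 8, from 13465374 to 13494535. No exon of the 5 genes overlapped an exon of another annotated gene.

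The sequences before the start sites of Axl and Pros1 are shown because these were the members whose level differed between the genotypes, and Ikaros is known to bind DNA at a GGGAA core. Both are RefSeq promoter sequences given for build GRCm38.p6, matched exactly and once to mm9, and run over the 250 bases before the RefSeq start, 5′ to 3′ on the strand of the gene. Capitals mark GGGAA or its reverse complement TTCCC, and TGTTTAC, the reverse complement of the forkhead core GTAAACA to which Foxp3 and related factors are known to bind. The Axl sequence is chr7:26573753-26574002 on the minus strand, and the Pros1 sequence is chr16:62853883-62854132 on the plus strand.
Axl: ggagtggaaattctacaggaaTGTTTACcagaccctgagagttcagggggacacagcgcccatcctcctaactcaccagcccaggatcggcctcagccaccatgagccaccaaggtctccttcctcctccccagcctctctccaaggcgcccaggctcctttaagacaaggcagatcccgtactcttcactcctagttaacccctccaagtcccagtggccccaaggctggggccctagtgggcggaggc
Pros1: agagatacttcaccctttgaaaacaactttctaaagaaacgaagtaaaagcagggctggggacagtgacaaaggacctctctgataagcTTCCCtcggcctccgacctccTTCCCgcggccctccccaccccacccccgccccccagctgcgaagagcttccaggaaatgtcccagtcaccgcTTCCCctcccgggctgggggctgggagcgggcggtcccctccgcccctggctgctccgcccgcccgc

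Windows of 300 bases, 250 before and 50 after the RefSeq start, were searched on both strands for GGGAA, for the longer TGGGAA, which contains it, and for GTAAACA. Axl held 1 GGGAA, 20 bases after the start, within gagccaggggcgGGGAAagaagtctggga (chr7:26573717-26573745, minus strand), and 1 GTAAACA in reverse orientation at position -229. Pros1 held 3 GGGAA, all in reverse orientation, at positions -161, -140 and -67. Mertk held 3, Tyro3 held 1 and Gas6 held 0. Of all 32817 windows, 62.7% held a GGGAA, so its presence at 4 of the 5 genes is close to that share. TGGGAA occurred in 25.6% of windows and in 0 of the 5, and GTAAACA occurred in 3.6% of windows and, among the 5, only in that of Axl. These matches describe the letters in the window and are not binding sites.

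Each library held between 8208659 and 20247649 reads on genes, fewest in the stimulated cKO group. A single gene model, Gm10800, took 17.7% to 55.9% of the TPM of a library and lowered the TPM of all other genes to that extent, so fits were made on TPM scaled between libraries and TPM as deposited is given beside them. Its share was 17.7% to 39.8% in WT and 20.4% to 24.4% in cKO ex vivo. After stimulation it was 32.6% to 44.4% in WT and 42.9% to 55.9% in cKO. Genes that T cells do not use were not at 0. A panel of 213 genes restricted to other tissues (keratins, crystallins, beta-defensins, sarcomeric myosins, neuronal channels and receptors), chosen after the data were seen, had a median of 1.31 to 2.76 TPM per library and a 90th percentile of 2.601 to 5.44 TPM. This level is called the background below. The library WT ex vivo 3 came from a female, with Xist at 179 TPM, and all other libraries had at most 1.36 TPM. WT ex vivo 3 and WT stimulated 3 are thus not from 1 animal. Whether the other ex vivo and stimulated libraries of the same number share an animal is not stated in the labels, so numbers are not taken as pairs, and p-values measure the spread between libraries of single mice.

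The plot of TPM by library sets each member against this background.

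**Figure D1:**
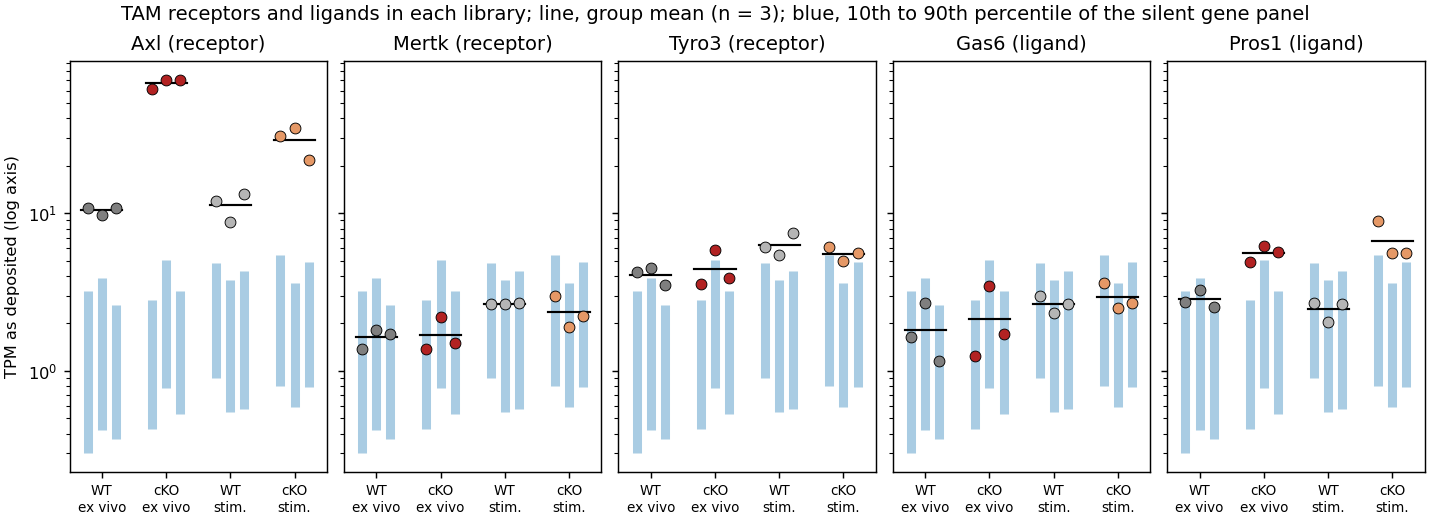
TPM as deposited (log axis) of the 5 genes in each of the 12 libraries, with a line at the mean of each group of 3. Blue bars run from the 10th to the 90th percentile of the 213 panel genes in that library. Axl lies above the bar in every library, Mertk and Gas6 lie within it in every library, and Pros1 lies above it in the 6 cKO libraries alone.

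Axl binds Gas6 and is the receptor that dendritic cells raise in response to interferon. In the ex vivo WT libraries Axl was measured at 10.8, 9.73 and 10.8 TPM, against 61.1, 70.3 and 69.6 TPM in those of cKO. The groups did not overlap, and the mean of cKO was 6.42 times that of WT. These are the values on which Axl was chosen, so they carry no test. On the scale of log2(scaled TPM + 1), the scale of all fitted differences here, the difference was 2.34 (SE 0.12), where 5.29% of 13318 genes were called. The WT libraries rested on 450 to 726 Axl reads and the cKO libraries on 2922 to 4040, with a counting error of at most 4.71% of a value.

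The stimulated WT libraries gave 11.9, 8.82 and 13.2 TPM of Axl, and the stimulated cKO libraries 31.0, 34.9 and 21.7 TPM. The lowest cKO library was above the highest WT library, and the ratio of the means was 2.58. Axl was chosen on the ex vivo comparison, but with results of the stimulated libraries also known, so this test is not independent of the choice. The difference was 1.56 (SE 0.12, 95% interval 1.30 to 1.82), with a limma adjusted p of 6.34e-05, in a comparison in which 6.93% of 13318 genes were called. Axl was called with the stimulated libraries alone (adjusted p 0.00774) and in all 12 fits that left out 1 library (adjusted p at most 0.000562). With genes down to 1 TPM included, where 0.201% of 33873 genes were called, it was 1.26 with an adjusted p of 0.0489. At that minimum the call was kept in 3 of the 12 fits that left out 1 library, those without cKO ex vivo 2 or cKO stimulated 2 or 3, with differences of 1.03 to 1.47 and adjusted p-values of up to 0.195 over the 12, and it was lost with the stimulated libraries alone (adjusted p 0.21). In these bulk libraries fewer cells of a type and less RNA per cell cannot be told apart, so a higher level may stand for more Axl RNA per cell or for more cells with it.

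Axl stood near its ex vivo level in stimulated WT libraries and at a lower level in stimulated cKO libraries, relative to the library as a whole. The difference of stimulated from ex vivo libraries was -0.09 (SE 0.12) in WT, where the groups overlapped, and -0.87 (SE 0.12) in cKO, where they did not. The stimulated cKO mean was 0.436 of the ex vivo cKO mean in TPM as deposited, 0.544 in scaled TPM and 0.652 in TPM computed without Gm10800. These values use the libraries on which Axl was chosen and are given as a description. In TPM as deposited the order of the group levels was cKO ex vivo, cKO stimulated, WT stimulated and WT ex vivo. In scaled TPM the WT groups changed places, with 11.1 ex vivo and 10.3 after stimulation, and on both scales only the WT groups overlapped.

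A ratio to another T cell transcript does not depend on the scaling between libraries. Cd3e encodes a chain of the CD3 complex, and the ratio of Axl to Cd3e TPM was 0.0193 ± 0.0032 in WT and 0.103 ± 0.0059 in cKO ex vivo (SD, n = 3). After stimulation it was 0.0256 ± 0.0025 in WT and 0.0959 ± 0.011 in cKO. The stimulated groups did not overlap, and the exact permutation test gave a two-sided p of 0.1, below which 20 arrangements cannot go. Relative to Cd3e, the cKO levels ex vivo and after stimulation overlapped, with a ratio of means of 0.926, while the stimulated WT levels were all above those ex vivo, with a ratio of means of 1.33. Cd3e itself fell by 0.77 (log2, SE 0.13, adjusted p 0.00096) in cKO on stimulation, so the lower Axl level in stimulated cKO Treg is seen against the library as a whole and not against Cd3e. In WT the scaled TPM of Cd3e was also lower on stimulation, from 561, 525 and 659 to 373, 394 and 448. The scaled Axl groups of WT overlapped, with a ratio of means of 0.930, so the WT rise is seen against Cd3e alone.

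Tyro3, which binds both ligands, was the second receptor by level. Its ex vivo values were 4.24, 4.48 and 3.48 TPM in WT, against 3.58, 5.83 and 3.86 TPM in cKO. Its stimulated values were 6.11, 5.41 and 7.45 TPM in WT, against 6.09, 4.99 and 5.57 TPM in cKO. It was above the 90th percentile of the background in 12 of 12 libraries, and the genotypes overlapped in both conditions. The genotype difference was -0.12 (95% interval -0.51 to 0.28, limma adjusted p 0.821) ex vivo and 0.10 (-0.30 to 0.49, adjusted p 0.770) after stimulation. In the ratio to Cd3e the stimulated groups did not overlap, with a cKO mean 1.33 times that of WT. Cd3e itself was at 418, 368 and 541 TPM in stimulated WT and at 375, 337 and 214 TPM in stimulated cKO. In TPM as deposited the stimulated cKO mean of Tyro3 was 0.878 of that of WT. The intervals leave room for a difference of up to 0.51 on this scale ex vivo and 0.49 after stimulation.

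Tyro3 passed the minimum of 5 TPM only through its stimulated groups, so its stimulation difference was read with genes down to 1 TPM included. There it was 0.15 (SE 0.13, limma adjusted p 0.613) in WT and 0.11 (SE 0.13, adjusted p 0.608) in cKO, where 17.4% of genes were called, and neither was called. With the minimum of 5 TPM the values were 0.36 (SE 0.18, adjusted p 0.153) in WT and 0.57 (SE 0.18, adjusted p 0.0251) in cKO, where 43.8% of genes were called, and the panel of unused genes differed in its median by 0.20 and 0.49 under the same scaling. The cKO value was also not called with TPM as deposited (0.29, adjusted p 0.298), with quantile scaling (0.21, 0.199), in the cKO libraries alone (0.57, 0.0569), or without cKO ex vivo 1 (0.49, 0.0893), cKO ex vivo 3 (0.51, 0.0828) or cKO stimulated 3 (0.49, 0.067).

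Mertk, the receptor of apoptotic cell uptake by macrophages, lay within the background in every library. Its ex vivo values were 1.38, 1.81 and 1.71 TPM in WT, against 1.39, 2.21 and 1.499 TPM in cKO. Its stimulated values were 2.66, 2.66 and 2.71 TPM in WT, against 3.01, 1.89 and 2.23 TPM in cKO. The values follow the panel of each library and fall between its 42.7 and 70.4 percentiles. Mertk did not reach the minimum of 5 TPM and was tested with the minimum of 1 TPM. There the genotype difference was -0.15 (95% interval -0.47 to 0.17) ex vivo, with an adjusted p of 0.969, and -0.15 (-0.47 to 0.17) after stimulation, with an adjusted p of 0.680 (limma). At that minimum 0.168% of genes were called ex vivo.

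Axl thus made up most of the receptor transcripts. Its share of the summed TPM of the 3 receptors was 60.8% to 67.6% in the WT and 89.7% to 92.9% in the cKO libraries ex vivo, and 52.2% to 57.6% in the WT and 73.5% to 83.5% in the cKO libraries after stimulation. The sum itself was 16.1 ± 0.22 TPM in WT and 73.1 ± 6.31 TPM in cKO ex vivo, and 20.3 ± 3.26 TPM and 37.1 ± 6.70 TPM after stimulation. The background is part of the values of all 3 receptors, and the share was not computed without it.

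Gas6 encodes the ligand of all TAM receptors. Ex vivo the WT libraries gave 1.65, 2.69 and 1.16 TPM, against 1.25, 3.45 and 1.70 TPM in cKO. Stimulated WT libraries gave 3.002, 2.32 and 2.67 TPM, against 3.62, 2.51 and 2.70 TPM in cKO. These values rested on 40 to 74 reads and lay between the 39.9 and 79.3 percentiles of the panel. Transcripts of Gas6 were therefore not detectable above the background at this depth in either genotype. With the minimum of 1 TPM the genotype difference was -0.06 (95% interval -0.53 to 0.41) ex vivo and 0.08 (-0.39 to 0.55) after stimulation, with limma adjusted p-values of 1 and 0.898. With the scaling factors of the genes of at least 5 TPM the stimulated difference was 0.31, where the panel's median differed by 0.27. On that scale the stimulated means were 2.46 in WT and 3.31 in cKO and the groups did not overlap. Nor did they in the ratio to Cd3e, where the cKO mean was 1.61 times that of WT. That ratio also carries the Cd3e levels given above for Tyro3. In TPM as deposited the Gas6 groups overlapped, with a ratio of means of 1.10.

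Pros1 encodes protein S, which is also a cofactor of activated protein C in blood. The ex vivo WT libraries held 2.74, 3.25 and 2.53 TPM of it, against 4.90, 6.22 and 5.70 TPM in cKO. The groups did not overlap and the cKO mean was 1.97 times the WT mean, 5.61 ± 0.66 against 2.84 ± 0.37 TPM (SD, n = 3). The difference was 0.59 (SE 0.15, limma adjusted p 0.211) with genes down to 1 TPM included and 0.58 (SE 0.18, 95% interval 0.19 to 0.98, adjusted p 0.0995) with the minimum of 5 TPM, and neither was called. Without WT ex vivo 2 the latter was 0.75 with an adjusted p of 0.0463, but Pros1 passed the minimum of 5 TPM only through its cKO groups.

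In the stimulated WT libraries Pros1 was measured at 2.72, 2.04 and 2.64 TPM, against 8.92, 5.57 and 5.61 TPM in those of cKO. Every cKO library was again above every WT library, with a ratio of means of 2.72. With genes down to 1 TPM included, a minimum that Pros1 passed in every group, it rose by 1.09 (SE 0.15, 95% interval 0.77 to 1.41, limma adjusted p 0.0146) in stimulated cKO against stimulated WT Treg, where 0.201% of genes were called. At that minimum the call was lost without WT stimulated 1, 2 or 3 or cKO stimulated 1 (differences of 0.99 to 1.10, adjusted p 0.0815 to 0.0983) and with the stimulated libraries alone (adjusted p 0.118). It passed the minimum of 5 TPM only through its cKO groups, so the fit at that minimum is not free of the difference it tests. There the value was 1.37 (SE 0.18, 95% interval 0.97 to 1.76, adjusted p 0.00147), with an adjusted p of at most 0.012 in the 12 fits that left out 1 library. The median of the panel differed by 0.27 in the same comparison. The median of the panel was also subtracted from every value of a library, an alternative added after the data were seen. The difference was then 2.33 (limma adjusted p 0.000191) with the minimum of 5 TPM and 2.20 (adjusted p 0.000987) with that of 1 TPM.

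In WT, Pros1 was close to the background, at the 84.5 to 88.7 percentiles of the panel ex vivo and at the 57.3 to 59.2 percentiles after stimulation. In cKO it was at the 96.2 to 98.1 percentiles ex vivo and at the 94.4 to 98.6 percentiles after stimulation. The reads behind these values numbered 77 to 138 in WT and 164 to 269 in cKO. The order of the group levels was cKO stimulated, cKO ex vivo, WT ex vivo and WT stimulated. In TPM as deposited the cKO groups overlapped with each other, as did the WT groups, and in scaled TPM neither pair overlapped.

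With genes down to 1 TPM included, the stimulation difference of Pros1 was -0.49 (SE 0.15, limma adjusted p 0.080) in WT, where 5.43% of genes were called, and 0.008 (SE 0.15, adjusted p 0.978) in cKO. The genotype difference after stimulation exceeded that ex vivo by 0.50 (SE 0.21, adjusted p 0.694) there. None of these was called. Pros1 passed the minimum of 5 TPM only through its cKO groups, so its fits at that minimum are not free of its genotype difference. With the minimum of 5 TPM the values were -0.30 (SE 0.18, adjusted p 0.231) in WT, where 32% of genes were called, 0.48 (SE 0.18, adjusted p 0.051) in cKO, and 0.78 (SE 0.26, adjusted p 0.185) for the difference of differences, where 1.1% of genes were called. Without WT ex vivo 1, 2 or 3 or cKO stimulated 2, the cKO difference at 5 TPM was 0.48 to 0.59 with adjusted p-values of 0.0311 to 0.0471. Other settings at 5 TPM also gave calls, with the same limit. The difference of differences was called with the panel's median subtracted (1.46, adjusted p 0.0467) and with recovered reads (0.93, adjusted p 0.0489). The WT stimulation difference was called with quantile scaling (-0.63, adjusted p 0.00789) and with the panel's median subtracted (-0.92, adjusted p 0.0112). That in cKO was called with median of ratios scaling (0.54, adjusted p 0.0345), with the cKO libraries alone (0.48, adjusted p 0.0375) and with recovered reads (0.54, adjusted p 0.0172). For Axl the same difference of differences was -0.78 (SE 0.17), and -1.29 with TPM as deposited, -1.07 with genes down to 1 TPM included and -0.39 with quantile scaling, given as a description because it contains the values on which Axl was chosen. The comparisons share libraries, and the values of both genes stand side by side only for that reason.

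**Figure D2:**
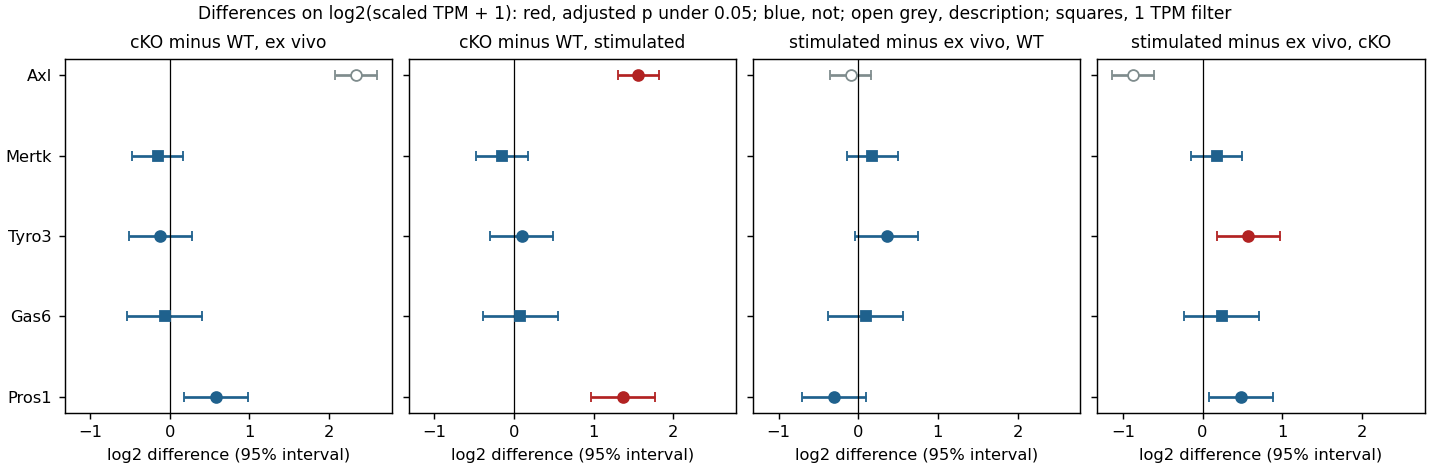
Fitted differences on log2(scaled TPM + 1) with 95% intervals for the 5 genes in the 4 comparisons, from 3 libraries a group. Red points had an adjusted p under 0.05, blue points did not, open grey points are the Axl values given as a description, and squares were fitted with the minimum of 1 TPM. Tyro3 and Pros1 passed the minimum of 5 TPM only through their stimulated and cKO groups. After stimulation the genotype intervals of Axl (1.56) and Pros1 (1.37, and 1.09 with the minimum of 1 TPM) lie above 0, and those of Mertk, Tyro3 and Gas6 include 0.

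TAM receptors and ligands are also made by cells that a Treg sort could carry along, so markers of such cells were listed. The markers of Treg themselves were high, with all 8 of them above the 90th percentile of the panel in 12 of 12 libraries and a summed level of 1218 to 4052 TPM. Foxp3, the defining factor of Treg, did not pass the test ex vivo (-0.12, adjusted p 0.804) and rose by 0.96 in stimulated cKO (SE 0.18, adjusted p 0.00847). Il2ra, the high-affinity IL-2 receptor chain, rose by 0.80 (SE 0.15, adjusted p 0.00972), and Trac, the T cell receptor alpha constant region, fell by 0.63 (SE 0.13, adjusted p 0.0147) in the same comparison. Trac lost its call without WT stimulated 1 or 3 or cKO stimulated 3 (adjusted p at most 0.069).

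Macrophages express Axl and Mertk, and 15 macrophage and monocyte markers were measured. Their summed level was 29.9 to 33.2 TPM in WT and 31.2 to 56.4 TPM in cKO ex vivo, and 43.7 to 64.8 TPM in WT and 44.7 to 61.4 TPM in cKO after stimulation. None was at 0, and Cd68, a lysosomal protein that T cells also contain, was the only marker above the panel's 90th percentile in more than 3 libraries. The other 14, among them Emr1, Csf1r, Lyz2 and C1qa, summed to 24.1 to 28.3 TPM in WT and 24.5 to 46.8 TPM in cKO ex vivo and to 33.3 to 47.9 TPM and 34.1 to 48.1 TPM after stimulation, and none of them exceeded 5.70 TPM in any library. The sums overlapped between the genotypes in both conditions. They rose and fell with the panel's median, from 24.5 TPM at a median of 1.31 in cKO ex vivo 1 to 46.8 TPM at 2.49 in cKO ex vivo 2. At this level they follow the background and cannot measure macrophage RNA. The part of macrophage RNA in the Axl values was not tested.

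**Figure D3:**
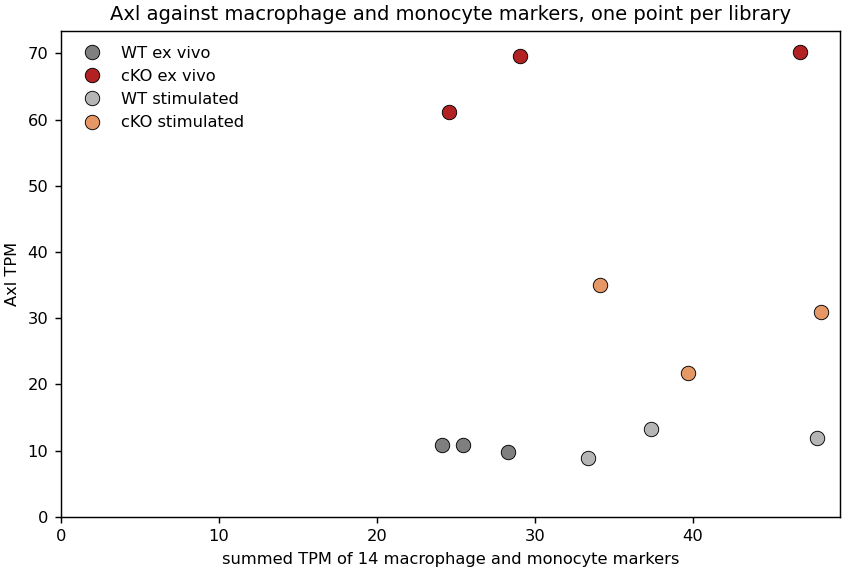
Axl TPM against the summed TPM of 14 macrophage and monocyte markers (all listed but Cd68), 1 point per library, coloured by group, both axes from 0. The cKO libraries lie above the WT libraries in Axl in both conditions. The marker sums follow the background of each library and cannot measure macrophage RNA.

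Of the 10 dendritic cell markers, Cd74 was the only one tested at 5 TPM. Cd74 encodes the invariant chain of MHC class II, and in cKO it rose ex vivo by 1.07 (SE 0.15, adjusted p 0.0029) and in stimulated libraries by 0.87 (SE 0.15, adjusted p 0.00619). The summed level of the list was 51.7 to 57.9 TPM in WT and 106 to 129 TPM in cKO ex vivo, and 47.0 to 69.5 TPM and 63.3 to 93.8 TPM after stimulation. The defining markers Xcr1, Clec9a, Siglech, Flt3 and Cd209a were above the panel's 90th percentile in 0 libraries, as was H2-Ab1. H2-Aa, an MHC class II chain, was above it in all 3 ex vivo and in 2 stimulated cKO libraries and in 0 WT libraries, at group means of 2.21 TPM in WT and 4.18 TPM in cKO ex vivo and 3.35 and 4.92 TPM after stimulation. Zbtb46 was above it in 3 libraries and Itgax in 2. Whether cells with Cd74 or H2-Aa have a part in the Axl values was not tested.

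Among the 5 B cell markers, Ighm was above the panel's 90th percentile in 12 libraries and Cd79b in 10, the exceptions being WT stimulated 1 and 2. Cd79b rose by 0.96 (SE 0.23, adjusted p 0.0283) in stimulated cKO, and the call was lost in 4 of 12 fits that left out 1 library (without WT stimulated 1 or 2 or cKO stimulated 1 or 3), at adjusted p-values of up to 0.106. Ms4a1, Cd79a and Pax5 were above the panel's 90th percentile in 0 libraries. The list summed to 249.5 to 325 TPM in WT and 397 to 470 TPM in cKO ex vivo, and to 97.9 to 140.4 TPM and 78.6 to 114 TPM after stimulation, nearly all of it Ighm. Platelets carry protein S, and their 5 markers summed to 6.02 to 9.32 TPM in WT and 7.56 to 12.8 TPM in cKO ex vivo, and to 9.30 to 15.2 TPM and 10.5 to 18.5 TPM after stimulation. Pf4, Ppbp, Gp1bb and Gp9 were above the panel's 90th percentile in 0 libraries. Itga2b, an integrin of platelets, was above it in 9 and had a genotype difference of -0.01 (adjusted p 0.994) ex vivo and 0.11 (adjusted p 0.802) after stimulation. The part of platelet or B cell RNA in the Pros1 values was not tested.

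Endothelium is a further source of protein S. Of its 6 markers with those of stroma, Pecam1 fell by 0.57 (SE 0.11, adjusted p 0.0129) in stimulated cKO, a call lost without WT stimulated 2 or 3 or cKO stimulated 1 or 3 (adjusted p at most 0.0617), and Cdh5 and Kdr were above the panel's 90th percentile in 0 libraries. Col1a1, a collagen of stroma, was above it in 2 stimulated cKO libraries, with a difference of 0.81 (SE 0.36, adjusted p 0.202) after stimulation. The part of RNA from endothelium or stroma in the Pros1 values was not tested. The list summed to 48.2 to 79.5 TPM in WT and 54.1 to 63.1 TPM in cKO ex vivo, and to 47.4 to 61.6 TPM and 38.6 to 42.6 TPM after stimulation. The 5 markers of NK and CD8 T cells summed to 16.7 to 18.2 TPM and 15.3 to 22.3 TPM ex vivo and to 19.4 to 25.4 TPM and 17.5 to 22.5 TPM after stimulation, in WT and cKO in turn.

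Both ligands need gamma-carboxylation in the secretory pathway, and the receptors are shed from the cell surface by proteases. Of 6 genes of ligand maturation and receptor shedding, 5 reached 5 TPM, and 1 was called higher ex vivo and 0 after stimulation, beside 5.29% and 6.93% of all genes called. Furin, a proprotein convertase that is itself needed for Treg function, was at 21.5 ± 6.55 TPM in WT and 40.4 ± 2.04 TPM in cKO ex vivo and rose by 0.69 (SE 0.12, limma adjusted p 0.00923). Ggcx, the gamma-carboxylase, was at 4.41 to 7.83 TPM by group mean and had a genotype difference of 0.02 (adjusted p 0.972) ex vivo and 0.08 (adjusted p 0.776) after stimulation. Adam10, a protease that sheds TAM receptors and the most abundant gene of the list, had differences of 0.01 (adjusted p 0.982) and -0.00 (adjusted p 0.985), and Adam17 had 0.12 (adjusted p 0.522) and -0.19 (adjusted p 0.172). The list's median difference was 0.02 ex vivo, beside -0.01 over all genes tested, and -0.00 after stimulation, beside -0.03.

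TAM receptors signal through phosphatidylinositol 3-kinase and adaptor proteins, and in dendritic cells they act with the interferon receptor Ifnar1 to induce Socs1, Socs3 and Twist proteins, which damp cytokine signalling. Of 13 such genes 10 were tested, and 1 was called ex vivo and 3 after stimulation, 2 of them higher, where 5.29% and 6.93% of all genes were called. Socs3, an inhibitor of cytokine receptor signalling, rose ex vivo by 0.95 (SE 0.18, adjusted p 0.0119) and in stimulated libraries by 0.85 (SE 0.18, adjusted p 0.0179). Socs1, the inhibitor of JAK kinases, was at 73.9 ± 19.3 TPM in WT and 94.1 ± 8.70 TPM in cKO ex vivo with a difference of 0.14 (adjusted p 0.828), and at 55.5 ± 17.3 and 212 ± 82.2 TPM after stimulation, where it rose by 2.18 (SE 0.22, adjusted p 0.000285). Ifnar1 fell by 0.72 (SE 0.14, adjusted p 0.0105) after stimulation.

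Grb2, Nck2, Pik3r1, Pik3ca, Akt1 and Vav1 were not called in either condition, at adjusted p-values of at least 0.0562. Twist1 and Twist2 stayed under 3.61 TPM by group mean and were above the panel's 90th percentile in 0 libraries. The median difference of the tested genes was 0.06 ex vivo and -0.07 after stimulation, beside -0.01 and -0.03 over all genes.

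Phosphatidylserine, the lipid bridge to the ligands, is exposed by scramblases and returned to the inner leaflet by flippases. Of 21 genes of phosphatidylserine exposure and of its recognition by other receptors, 13 were tested, and 1 was called ex vivo, while 2 were called higher and 2 lower after stimulation, beside the 5.29% and 6.93% called over all genes. Plscr1, an interferon-inducible phospholipid scramblase family member, was at 11.6 ± 1.02 TPM in WT and 26.4 ± 1.62 TPM in cKO ex vivo, and it rose by 0.89 (SE 0.13, adjusted p 0.00312) there and by 0.54 (SE 0.13, adjusted p 0.0265) after stimulation. Ano6, a calcium-activated scramblase, fell by 0.41 (SE 0.09, adjusted p 0.0238) after stimulation. Elmo2 and Dock2, which act in Rac activation, rose by 0.43 (SE 0.09, adjusted p 0.0198) and fell by 0.48 (SE 0.12, adjusted p 0.0413). Rac1, with the highest level of the list, had differences of 0.24 (adjusted p 0.247) and -0.17 (adjusted p 0.325). Of the other phosphatidylserine receptors, Timd4, Havcr1, Stab1, Stab2 and Bai1 were above the panel's 90th percentile in 0 libraries, and Havcr2, known as Tim-3, had a difference of 0.58 (SE 0.30, adjusted p 0.355) ex vivo. The list's median was 0.07 ex vivo and 0.03 after stimulation.

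**Figure D4:**
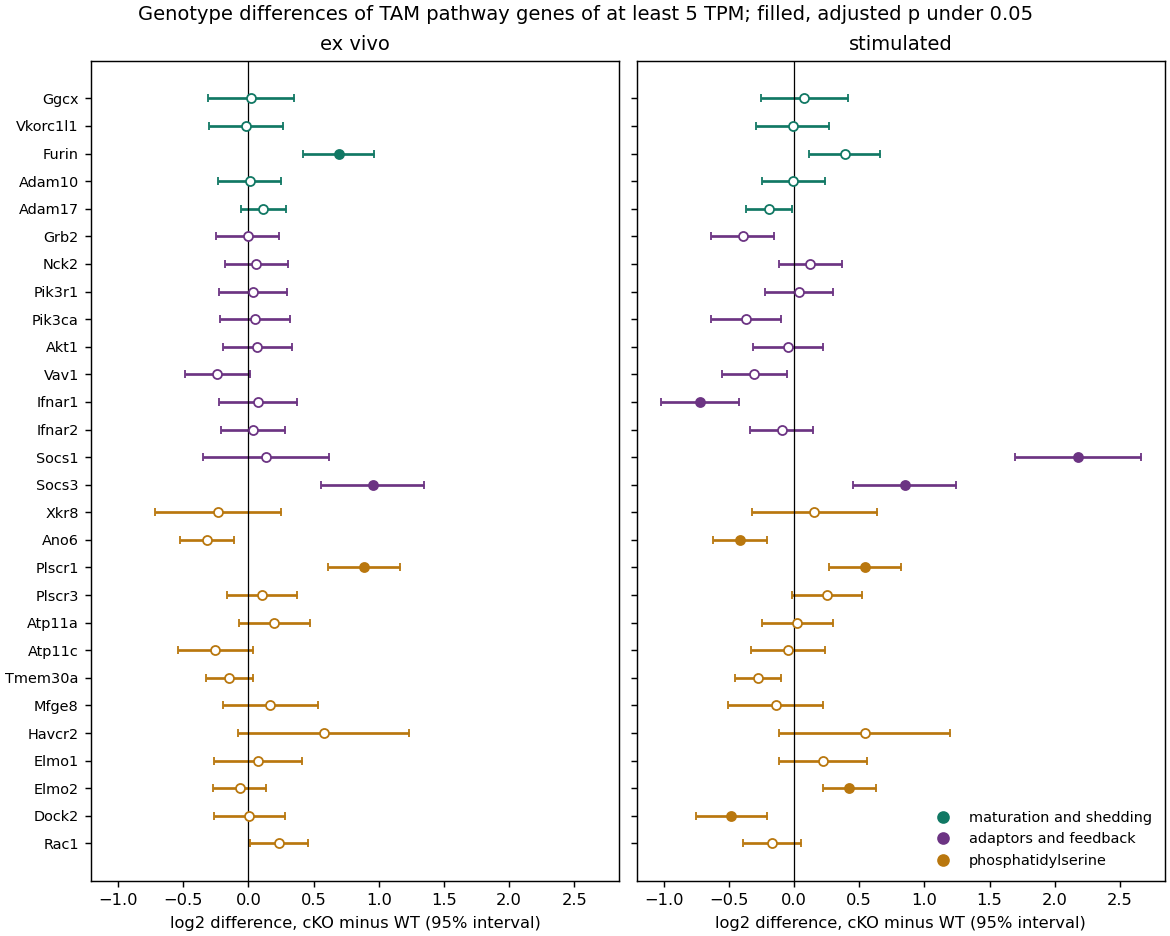
Genotype differences on log2(scaled TPM + 1), cKO minus WT, with 95% intervals for the 28 listed genes of at least 5 TPM, ex vivo and after stimulation. Filled points had a limma adjusted p under 0.05, and colours give the list. Socs1 after stimulation (2.18) has the largest difference shown, and 3 genes are filled ex vivo.

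With genes down to 1 TPM included, 0 of the 10 calls of pathway genes passed, at adjusted p-values of 0.0517 (Socs1, difference 1.87) to 0.75 (Elmo2, 0.14), and 0 of the 7 calls of cell type markers, at 0.222 to 0.452. At that minimum the differences of Furin (0.68), Plscr1 (0.88) and Socs3 (0.94) ex vivo were close to those given above, that of Ifnar1 after stimulation was -1.01, and those of Socs3 (0.55) and Plscr1 (0.25) after stimulation were smaller. In fits that left out 1 of the 12 libraries, Furin, Socs1 and, ex vivo, Plscr1 were called every time. Ifnar1 lost its call without WT stimulated 2 (adjusted p 0.0528), Elmo2 without WT stimulated 2 or cKO stimulated 1 (at most 0.0841) and Socs3 ex vivo without cKO ex vivo 1 or 3 (at most 0.0524). Socs3 and Plscr1 after stimulation lost it in 4 fits each (at most 0.0674 and 0.109), Ano6 in 5 (at most 0.112) and Dock2 in 9 (at most 0.161), among them those without WT stimulated 2 or cKO stimulated 1.

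Genes next to Axl were measured to see whether its difference extended along the chromosome. Hnrnpul1, an RNA-binding protein 2.54 kb from the 3′ end of Axl, had a genotype difference of 0.08 (SE 0.11, limma adjusted p 0.794) ex vivo and -0.11 (SE 0.11, adjusted p 0.562) after stimulation. Ccdc97 had 0.17 (SE 0.10, adjusted p 0.425) and 0.05 (SE 0.10, adjusted p 0.789). Tgfb1, the cytokine TGF-beta 1 that Treg make, lies 52.2 kb away and had 0.27 (SE 0.10, adjusted p 0.189) and -0.16 (SE 0.10, adjusted p 0.381). On the other side Cyp2s1, Gm4613 and Gm6434 had group means of at most 4.38 TPM and were not tested. None of the tested neighbours was called in a genotype comparison.

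Among the 5 genes whose log2(scaled TPM + 1) followed that of Axl most closely over the 12 libraries were Ifitm2 (Pearson r 0.987), H1f0 (0.986), Tmem176b (0.985) and C1qtnf6 (0.978). They were picked as the highest values among 13318 genes, the libraries share their groups, and the r is a description. Ifitm2, an interferon-inducible membrane protein, stood at 8.39 ± 1.48 TPM in WT and 105 ± 9.60 TPM in cKO ex vivo and at 9.42 ± 2.27 TPM and 51.7 ± 15.4 TPM after stimulation. H1f0, a linker histone, stood at 29.7 ± 3.44 and 103 ± 3.12 TPM ex vivo and at 33.9 ± 6.28 and 52.1 ± 11.1 TPM after stimulation. Tmem176b and C1qtnf6 had the same order of groups, with cKO ex vivo means of 22.7 and 22.3 TPM and cKO stimulated means of 11.96 and 13.9 TPM.

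**Figure D5:**
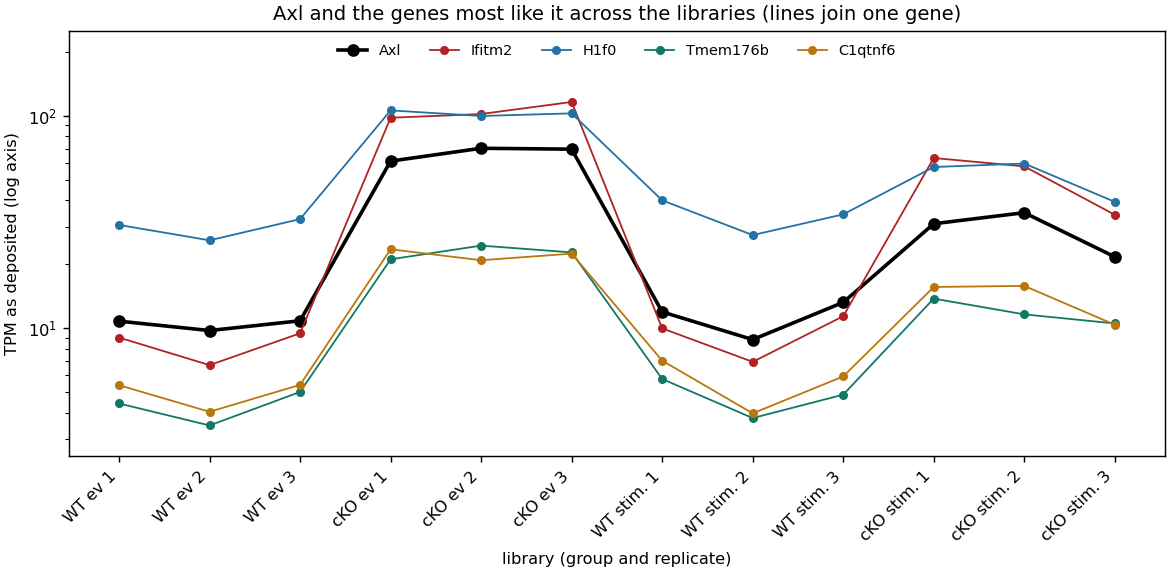
TPM as deposited (log axis) of Axl and of 4 of the 5 genes with the highest Pearson correlation with it, in each of the 12 libraries, with lines joining the values of a gene. All 5 genes have their highest group mean in cKO ex vivo and their next highest in cKO stimulated.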

How the data were processed

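As the labels and methods state, the authors removed ribosomal RNA, prepared directional libraries, sequenced 51 bp from both ends, aligned them to mm9 with STAR 2.6.0c and counted reads with HTSeq 0.6.1. The signal deposited by the authors is in TPM, and the deposited log2 values add the value of 1 read to it, which gave back whole reads for 99.9977% of values (tolerance 0.01 read). A table of the authors' own fold changes and p-values was not used. Here TPM were scaled with trimmed M-values (30% of M and 5% of A trimmed) over the 13318 genes with a group mean of at least 5 TPM, and log2(scaled TPM + 1) was fitted with limma 3.58.1 in R 4.3.3 to all 12 libraries with 4 group means and a mean-variance trend, which was tested on simulated data. Tests were two-sided with Benjamini-Hochberg adjustment over all genes tested, and a gene was called under 0.05. The scale with 1 added understates changes of low genes. Mertk and Gas6 were fitted with a minimum of 1 TPM. The count error given is the square root of recovered reads only. Files were read with Python 3.11.15. Genes named are the 5 members, listed genes that were called or lead their list by level, Ikzf1, the 3 nearest protein-coding genes on either side of Axl and the 5 genes most correlated with it, and other listed genes were named after their values were seen. A few listed or correlated genes are not reported here and were left out of the lists, their counts and the plots. Members and lists were chosen with earlier results of these data known. Positions are from GENCODE vM1 on NCBIM37 (mm9), and promoters from RefSeq.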

Additional observations from a re-analysis of the deposited data

Results flagged for a closer look

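The genotype effect on Socs1 differed between the conditions, by 2.04 (log2, SE 0.31, limma adjusted p 0.0137) for the stimulated against the ex vivo comparison. With genes down to 1 TPM included, the difference for Socs1 was 1.75 (SE 0.46, adjusted p 0.505), 0 genes were called for this difference by limma, and 2406 had an unadjusted p under 0.05.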

How the results depend on the processing

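Alternatives were a minimum of 1 TPM or none, a pseudocount of 0.5, TPM as deposited, quantile and median of ratios scaling, the libraries of a comparison alone, a replicate block and leaving out each library, with subtraction of the panel's median and recovered reads scaled by depth added after the data were seen. Under all of these Axl and Pros1 were called as higher in stimulated cKO, from 1.26 to 1.85 for Axl (1.43 to 1.66 without a library) and from 1.09 to 2.33 for Pros1 (1.28 to 1.48), but apart from those with 1 TPM or no minimum these keep the 5 TPM that Pros1 passed only through its cKO groups. With the 1 TPM minimum and a second change together, added after the data were seen, leaving out a library gave 1.03 to 1.47 for Axl (called in 3 of 12 fits) and 0.99 to 1.19 for Pros1 (8 of 12), and neither was called in the stimulated libraries alone (1.26 and 1.09, adjusted p 0.21 and 0.118) or with the replicate block (1.26 and 1.09, adjusted p 0.152 and 0.0677), while both were called with the other 6 settings. Pros1 ex vivo was called only without WT ex vivo 2 (leave-one-out range 0.48 to 0.75) and with recovered reads (0.71), both at the 5 TPM minimum.

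The number of genes called depended on the setting. Ex vivo 704 genes were called, 57 with the 1 TPM minimum, 56 with none, 273 with TPM as deposited and 310 in the ex vivo libraries alone, and leaving out a library gave 331 (without cKO ex vivo 3) to 740. In stimulated Treg 923 were called, 68 with the 1 TPM minimum and with none, 306 with TPM as deposited, 1579 with quantile scaling, 546 in the stimulated libraries alone and 1415 with recovered reads, with 424 (without WT stimulated 2) to 990 when a library was left out. Of the calls 68.5% were higher in cKO ex vivo and 47.6% after stimulation, and with TPM as deposited 95.2% and 22.5%. For stimulation in WT 4262 were called, 1838 with the 1 TPM minimum, 1694 with none and 1943 as deposited. For the interaction 147 were called, 0 with the 1 TPM minimum (2406 at an unadjusted p under 0.05 in limma) or none, 67 as deposited, 392 with quantile scaling, 314 with the panel subtracted, 396 with recovered reads and 56 (without cKO stimulated 1) to 208 without a library.

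Uncalled differences near 0 changed sign. Axl in WT on stimulation was 0.090 as deposited. For Tyro3 the genotype difference was 0.081 as deposited ex vivo (leave-one-out -0.26 to 0.035) and, after stimulation, -0.17 with the 1 TPM minimum, -0.16 with none, -0.15 as deposited and -0.075 with quantile scaling, and its interaction was -0.033, -0.048 and -0.24 for the first 3 of these. For Mertk it was 0.026 ex vivo as deposited, -0.0026 for stimulation in cKO with quantile scaling, and the interaction was 0.0004 with the pseudocount, 0.018 with median of ratios, 0.056 with recovered reads and -0.063 to 0.10 without a library. For Gas6 it was 0.12 ex vivo as deposited and -0.23 to 0.18 without a library, -0.049 to 0.34 for stimulation in WT without a library, and the interaction was -0.023 as deposited and -0.091 to 0.31 without a library. The cause of these changes was not tested.

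The replicate number as a block gave 65 calls for the interaction in place of 147 and ended no call of Axl or Pros1 at 5 TPM. Same-numbered libraries did not deviate together as a rule (2 of 18 correlations above 0.1, from -0.21 to 0.26). The exception was WT and cKO ex vivo, where all 3 were above 0 (0.15, 0.26 and 0.078). In 6 of 18 comparisons of a library with the 3 of another group, its own number correlated best. The numbers were not used as pairs. The members of low level rested on few reads, 40 to 115 for Gas6 and Mertk and 77 to 138 for Pros1 in WT.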
